A study of Mus musculus with 6 samples.

Results

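The genes described here encode 8 proteins that form large pores in the cell membrane, 6 connexins and 2 pannexins, measured in tumors of the mouse melanoma line B16. They are Gja1, Gja4, Gja5, Gjc1, Gjb2 and Gjb6 among the connexins and Panx1 and Panx2 among the pannexins. They were taken by symbol from the 55536 genes in the count files, which hold 23 connexin and pannexin genes in all. The list was chosen by what earlier results of these data had shown of the levels and fold changes in this same comparison, so the values below are a description of these genes and support nothing beyond themselves. B16 cells carrying a knockout of ATM (ATM KO), a kinase that responds to broken DNA, or a vector control were placed under the skin of C57BL/6J mice, at about 100000 cells per inoculation. Tumors were taken on day 13 and total RNA was sequenced from 3 vector control and 3 ATM KO tumors, all of strain C57BL/6 by their labels and of no stated mouse age. How ATM was disrupted, if the ATM KO line was 1 clone or many, and if tumors are from separate mice are not in the labels. The p-values then measure only the spread between these tumors, which may be technical, and genotype cannot be told apart from the cell population that carries it.

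Connexins assemble as rings of 6 subunits, called hemichannels, and hemichannels of neighboring cells dock into gap junctions that pass ions and small molecules, cGAMP among them. Pannexins form related single-membrane channels, best known for releasing ATP from stressed or dying cells. RNA of a whole tumor mixes the connexin transcripts of melanoma cells with those of the vessel wall and of infiltrating cells.

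Libraries held 22101124 to 29037715 counts on genes. The filter on low counts left 15696 genes for testing. Of these, 778 passed the test between the groups (edgeR quasi-likelihood test, Benjamini-Hochberg adjusted p below 0.05), which is 4.96% of the genes tested; 347 were higher in ATM KO tumors (2.21%) and 431 were lower (2.75%). Atm itself was read at 105 ± 8.09 CPM (counts scaled to library size by TMM) in the controls and at 112 ± 18.0 CPM in ATM KO tumors (SD, n = 3 per group), with an edgeR adjusted p of 0.707, so its total count does not check the labels. The melanocyte markers fit a melanoma in all 6 tumors, with summed levels of 19610 to 28160 CPM over 8 of 8 tested genes. Vector control tumor 1 stood apart in its host tissue: its summed fibroblast markers were at 313.1 CPM, against 1556 to 3352 CPM in the other 5 tumors. Summed skeletal muscle markers differed more widely, at 24.95, 63.5 and 7282 CPM in vector control tumors 1, 2 and 3, against 2553, 7013 and 608.6 CPM in ATM KO tumors 1, 2 and 3. In whole tumors, fewer cells of a type and less RNA per cell cannot be told apart.

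Of the 8 members, 6 passed the filter on low counts. Gja1 was the only one of the 6 to pass the test, as a lower level in ATM KO tumors, beside a background of 2.75% of all genes called lower; because the choice of the genes used this contrast, nothing is read from that count. Gja1 was also the only tested member whose 2 groups of tumors did not overlap, beside 4669 of all 15696 genes (29.7%). Gjb2, Gjc1, Panx1, Gja4 and Gja5 did not pass, and Gjb6 and Panx2 were at or near 0.

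The promoters of the 2 members with the highest levels in the vector control tumors are shown because 1 of them changed between the groups and the other did not pass the test. Each is the 250 bases before the RefSeq start, read 5′ to 3′ on the strand of the gene from the RefSeq table of build GRCm38.p6. Gja1 lies at chr10:56377050-56377299 on the plus strand and Gjb2 at chr14:57104703-57104952 on the minus strand. Capitals mark the motifs searched on both strands, TGANTCA (AP-1) and GGGCGG (GC box, CCGCCC on the other strand). No match of one motif overlapped a match of the other.
Gja1 promoter: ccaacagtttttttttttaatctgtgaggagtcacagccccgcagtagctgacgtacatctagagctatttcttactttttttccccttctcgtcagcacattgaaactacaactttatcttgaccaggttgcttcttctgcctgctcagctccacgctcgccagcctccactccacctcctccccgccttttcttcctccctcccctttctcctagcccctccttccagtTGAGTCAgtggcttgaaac
Gjb2 promoter: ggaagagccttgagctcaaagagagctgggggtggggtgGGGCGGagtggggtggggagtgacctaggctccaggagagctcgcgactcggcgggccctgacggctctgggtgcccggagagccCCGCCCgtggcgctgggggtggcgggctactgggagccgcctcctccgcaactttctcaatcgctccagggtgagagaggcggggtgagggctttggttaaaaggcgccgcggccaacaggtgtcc
The Gja1 window held 1 AP-1 match, whose first base lies at -19 from the start, and no GC box match. The Gjb2 window held GC box matches at -211 and -126 and no AP-1 match. AP-1 matches occurred in 2217 of all 32851 promoter windows of this length (6.75%) and GC box matches in 32.7%. GC content was 50% for Gja1 and 69.2% for Gjb2, beside a median of 52.4% over all windows. The table held 6 of the 8 members, without Gjc1 and Panx2. Among the other 4, Gja4 and Gja5 each held 1 GC box match, at -79 and -17, and Gjb6 and Panx1 held neither motif. These are matches of letters only and say nothing of which factor binds.

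Gja1 (ENSMUSG00000050953.10, chr10:56377330-56402513 on the plus strand, GRCm38) encodes connexin 43, the most widely expressed connexin, found in fibroblasts, smooth muscle, astrocytes, heart muscle and many tumor cells. The vector control tumors 1, 2 and 3 held 1759, 1769 and 2210 Gja1 counts and the ATM KO tumors 1, 2 and 3 held 566, 851 and 807. Scaled for library size, these are 77.8, 80.9 and 91.5 CPM against 23.2, 30.5 and 27.6 CPM. Every ATM KO tumor was below every vector control tumor, with a wide gap between the groups and little spread within them.

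The mean of Gja1 was 83.4 ± 7.18 CPM in the controls and 27.1 ± 3.65 CPM with ATM KO (SD, n = 3 per group), 3.08 times higher in the controls. Gja1 fell by 1.62 ± 0.12 on the log2 scale (SE; edgeR adjusted p = 0.00675). The fold kept its size when single tumors were left out, from -1.72 to -1.52 on the log2 scale. The call was lost when ATM KO tumor 1, the tumor lowest in Gja1, was left out (log2 fold change -1.52, edgeR adjusted p = 0.0663), a setting under which 2 genes in the whole data set passed the test.

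**Figure D1:**
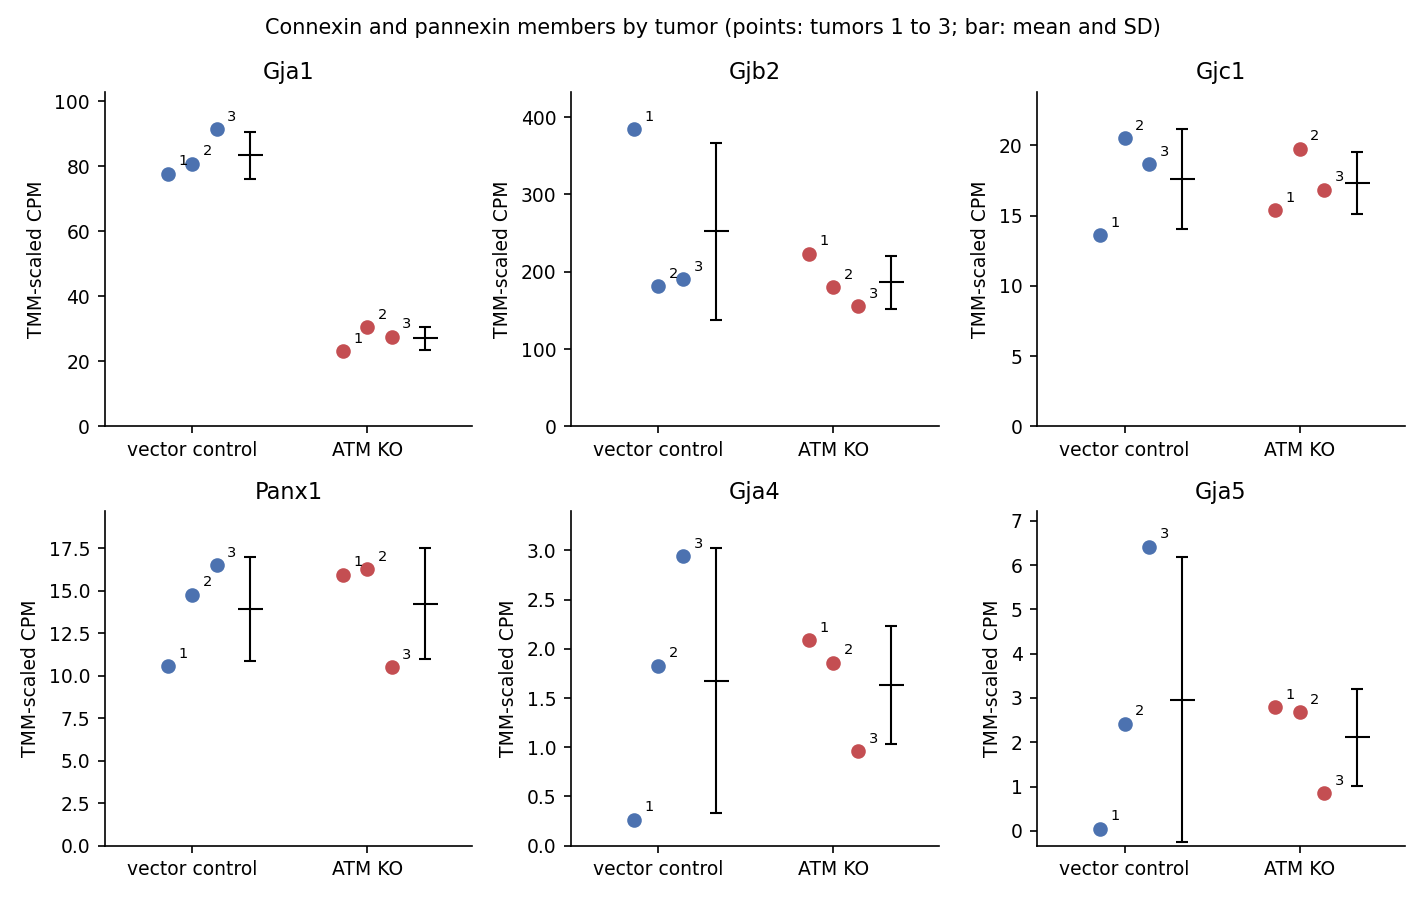
TMM-scaled CPM of the 6 tested members in each tumor (numbered points), with the mean and SD of each group of 3 beside them; the y axes differ between panels. The Gja1 points of the ATM KO tumors (23.2 to 30.5 CPM) lie below those of the vector control tumors (77.8 to 91.5 CPM), while the groups overlap for the other 5 genes.

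Summed markers of fibroblasts, mural cells and macrophages, some of the host cells that can carry connexin 43, overlapped between the groups. Summed fibroblast markers (10 of 10 tested, none at 0) were at 313.1, 2339 and 3352 CPM in vector control tumors 1, 2 and 3 and at 1567, 1786 and 1556 CPM in ATM KO tumors 1, 2 and 3. Vector control tumor 1 was lowest in fibroblast markers and held 77.8 CPM of Gja1. Summed mural cell markers, those of smooth muscle and pericytes (9 of 11 tested), spanned 103.9 to 248.8 CPM in vector control tumors and 103.6 to 166.6 CPM in ATM KO tumors, and the groups overlapped. Summed macrophage markers (9 of 9 tested) spanned 468.3 to 1277 CPM and 845.5 to 1138 CPM, again with overlap. The sums of endothelial and T cell markers did not overlap between the groups, and the endothelial sum was lower in ATM KO tumors, as Gja1 was. Among single genes tested, 29.7% had groups that did not overlap. Summed endothelial markers (16 of 16 tested) spanned 628.3 to 841.6 CPM in the controls and 549.6 to 608.8 CPM with ATM KO, and summed T cell markers (9 of 9 tested) spanned 36.7 to 50.5 CPM and 52.8 to 108.5 CPM, in the opposite direction. As mean log2 CPM over the list, endothelial markers overlapped between the groups, at 3.913 to 4.835 (controls) and 3.803 to 4.135 (ATM KO), and the T cell markers nearly met, at 1.803 to 2.413 and 2.414 to 3.386. Of the melanocyte markers, 1 of 8 passed the test, beside 4.96% of all genes tested. The list had a median log2 fold change of 0.04, with 5 of the 8 above 0. Dct, a melanin synthesis enzyme, fell by 0.75 ± 0.15 on the log2 scale (edgeR adjusted p = 0.0434), from 8521 to 5079 CPM. The Dct call held in 1 of the 6 fits that left out a tumor, the one without vector control tumor 1 (edgeR adjusted p 0.0186 to 0.166). The part that cell composition has in the Gja1 difference was not tested.

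Fold changes of the genes beside Gja1 on chromosome 10 were as follows. Within 5 Mb, 47 other genes were tested, with a median log2 fold change of -0.04. Of those genes, 3 passed the test, all lower, beside 2.75% of all genes tested called lower. The 2 tested genes within 1 Mb had a median of 0.17, and the median of the 762 other tested genes of the chromosome was 0.03. The part of chromosome position in the Gja1 difference was not tested. Of the 50-base windows of annotated Gja1 transcripts, 0.115% also occurred in transcripts of another gene, and no annotated gene overlapped it.

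Gjb2 (ENSMUSG00000046352.7, chr14:57098600-57104702 on the minus strand) encodes connexin 26, known from epithelia and the inner ear, where its loss is a common cause of inherited deafness. Its level was 384, 181 and 191 CPM in vector control tumors 1, 2 and 3, against 223, 180 and 156 CPM in ATM KO tumors 1, 2 and 3. Vector control tumor 1 was high and the other 5 tumors lay close together, so the groups overlapped.

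The mean of Gjb2 was 252 ± 115 CPM in vector control and 186 ± 34.2 CPM in ATM KO tumors (SD, n = 3 per group). The log2 fold change was -0.44 ± 0.33 (SE; edgeR adjusted p = 0.502). Without vector control tumor 1 the log2 fold change was 0.0045 (edgeR adjusted p = 0.990), so the lower mean of the ATM KO tumors rested on that 1 tumor. Keratinocytes also make Gjb2. Summed keratinocyte markers were 3.45 to 5.12 CPM in vector control and 4.10 to 4.40 CPM in ATM KO tumors. Of the 15 keratinocyte markers 1 was tested, 6 were at 0 counts in all tumors, and Krt5 and Krt14, the keratins of the basal layer, were among those 6. Vector control tumor 1, the highest in Gjb2, also had the highest summed melanocyte markers, 28160 CPM against 19610 to 21740 CPM in the other 5 tumors; the part of melanoma cell or keratinocyte content in the Gjb2 level was not tested.

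Gjb2 lies in a stretch of chromosome 14 where most tested genes had negative fold changes. The 27 other tested genes within 1 Mb had a median log2 fold change of -0.49, beside -0.44 for Gjb2 itself. Of those genes, 6 passed the test, all lower, beside 2.75% of all genes tested called lower. Within 5 Mb the median was -0.34 over 130 genes, of which 25 passed as lower and 1 as higher, and over 532 genes of the chromosome it was -0.35. The median over all genes tested was -0.01. For Gjc1, Panx1, Gja4 and Gja5, the medians within 5 Mb lay between -0.12 and 0.07. Neither the part of chromosome position in the Gjb2 values nor the weight of vector control tumor 1 in these medians was tested.

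Gjb6 (ENSMUSG00000040055.9, chr14:57123303-57133611 on the minus strand), the neighbor of Gjb2, encodes connexin 30, a partner of connexin 26 in the inner ear and skin. It had 2, 2 and 1 counts in vector control tumors 1, 2 and 3, against 3, 5 and 3 counts in ATM KO tumors 1, 2 and 3, too few to be tested. Gjb2 and Gjb6 thus differed in level by a wide margin in each of the 6 tumors although their genes are adjacent.

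Gjc1 (ENSMUSG00000034520.14, chr11:102799579-102819700 on the minus strand) encodes connexin 45, known from smooth muscle, cardiac conduction tissue and neurons. It was read at 13.6, 20.5 and 18.7 CPM in vector control tumors 1, 2 and 3 and at 15.4, 19.8 and 16.8 CPM in ATM KO tumors 1, 2 and 3. The ATM KO values all fell inside the range of the vector control values. Means were 17.6 ± 3.56 and 17.3 ± 2.23 CPM (SD, n = 3 per group), and the log2 difference was -0.02 ± 0.18 (SE; edgeR adjusted p = 0.964).

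Gja4 (ENSMUSG00000050234.7, chr4:127311421-127314039 on the minus strand) encodes connexin 37 and Gja5 (ENSMUSG00000057123.14, chr3:96904693-97077416 on the plus strand) encodes connexin 40, the gap junction proteins typical of arterial endothelium. Gja4 had 6, 40 and 71 counts in vector control tumors 1, 2 and 3, and ATM KO tumors 1, 2 and 3 had 51, 52 and 28. Gja5 had 1, 53 and 155 counts in the vector control tumors and 68, 75 and 25 in the ATM KO tumors, in the same order. For both genes vector control tumor 1 was the lowest and vector control tumor 3 the highest of the 6, so the vector control group alone spanned the whole range.

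Gja4 was at 1.68 ± 1.34 CPM in vector control and 1.64 ± 0.599 CPM in ATM KO tumors, with a log2 difference of -0.04 ± 0.76 (SE; edgeR adjusted p = 0.987). Gja5 was at 2.96 ± 3.22 and 2.11 ± 1.09 CPM (SD, n = 3 per group), with a log2 difference of -0.49 ± 1.22 (SE; edgeR adjusted p = 0.868). Standard errors of this size leave room for a large difference in either direction, and a p above the threshold does not show that the groups were alike. Without vector control tumor 3 the signs turned, to 0.65 for Gja4 and 0.78 for Gja5. The Gja5 counts carry a further limit, since 15.3% of the 50-base windows of its transcripts also occur in transcripts of Zfp697 or Gpr89, and 165 of its exon bases lie opposite an exon of Gpr89.

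Endothelial markers stand beside the 2 arterial connexins as follows. Summed endothelial markers (16 of 16 tested, none at 0) were at 642.7, 628.3 and 841.6 CPM in vector control tumors 1, 2 and 3 and at 595.8, 608.8 and 549.6 CPM in ATM KO tumors 1, 2 and 3, with every ATM KO tumor below every vector control tumor in this sum but not in the mean log2 CPM of the list. Per 1000 CPM of these markers, Gja4 stood at 0.413, 2.91 and 3.49 in the vector control tumors and 3.51, 3.06 and 1.74 in the ATM KO tumors. For Gja5 the same ratio was 0.0688, 3.86 and 7.62 against 4.68, 4.41 and 1.56. The groups overlapped in both ratios, and those of vector control tumor 1 rest on 6 counts of Gja4 and 1 count of Gja5.

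**Figure D2:**
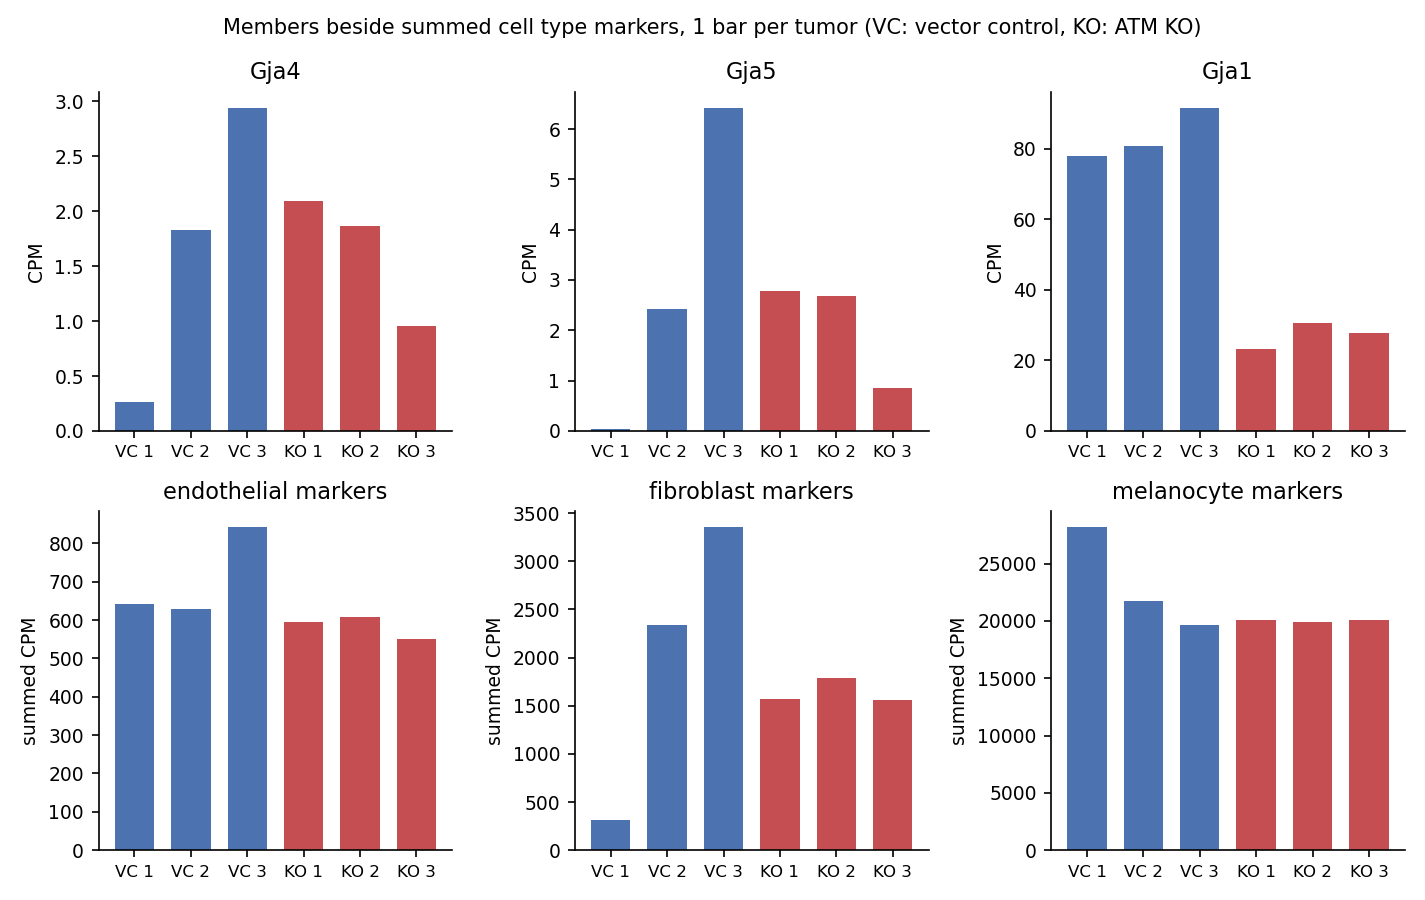
Levels of Gja4, Gja5 and Gja1 (top row, CPM) and summed levels of endothelial, fibroblast and melanocyte markers (bottom row, summed CPM), with 1 bar for each tumor. Vector control tumor 1 is lowest in Gja4, Gja5 and fibroblast markers (313.1 CPM) and highest in melanocyte markers (28160 CPM), while its Gja1 level (77.8 CPM) lies with the other vector control tumors.

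Other genes of arterial endothelium were listed to place Gja4 and Gja5. Of 15 such genes 14 were tested, with 1 passing as lower and 0 as higher, beside 2.75% and 2.21% of all genes tested. A fold change above 0 was seen in 3 of 14, beside 7710 of all 15696 genes. The called gene was Nrp1, a receptor for semaphorins and VEGF, which fell by 0.44 ± 0.08 on the log2 scale, from 110 ± 7.63 to 81.5 ± 5.14 CPM (edgeR adjusted p = 0.0399). Notch4, an endothelial Notch receptor, and its ligand Jag1 had log2 fold changes of -0.42 and -0.66 and did not pass (edgeR adjusted p of 0.164 and 0.202). The median log2 fold change of the list was -0.28, that of the 16 endothelial markers was -0.46, and none of those 16 passed by edgeR, with 5 lower and 1 higher at an unadjusted p under 0.05, beside 1936 lower and 1670 higher of all 15696 genes. The Nrp1 call held in 1 of the 6 fits that left out a tumor, the one without vector control tumor 1, with edgeR adjusted p-values from 0.0281 to 0.161.

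Panx1 (ENSMUSG00000031934.14, chr9:15002128-15045478 on the minus strand) encodes the broadly expressed pannexin, whose tail is cut by caspases in dying cells to open the channel. It was read at 10.6, 14.8 and 16.5 CPM in vector control tumors 1, 2 and 3 and at 15.95, 16.3 and 10.5 CPM in ATM KO tumors 1, 2 and 3. Both groups covered nearly the same range. Means were 13.95 ± 3.06 and 14.2 ± 3.25 CPM (SD, n = 3 per group), and the log2 difference was 0.03 ± 0.23 (SE; edgeR adjusted p = 0.962).

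Panx2 (ENSMUSG00000058441.7, chr15:89059734-89073567 on the plus strand), a pannexin known mainly from the nervous system, had 1 count in vector control tumor 3 and 0 in the other 5 tumors. A count of 0 allows up to 3 counts, or 0.103 to 0.137 CPM in these libraries, counting error only. In the 5 tumors with a count of 0, Panx2 was not detectable at this depth beyond that level. The bound does not cover vector control tumor 3, which held 1 count.

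**Figure D3:**
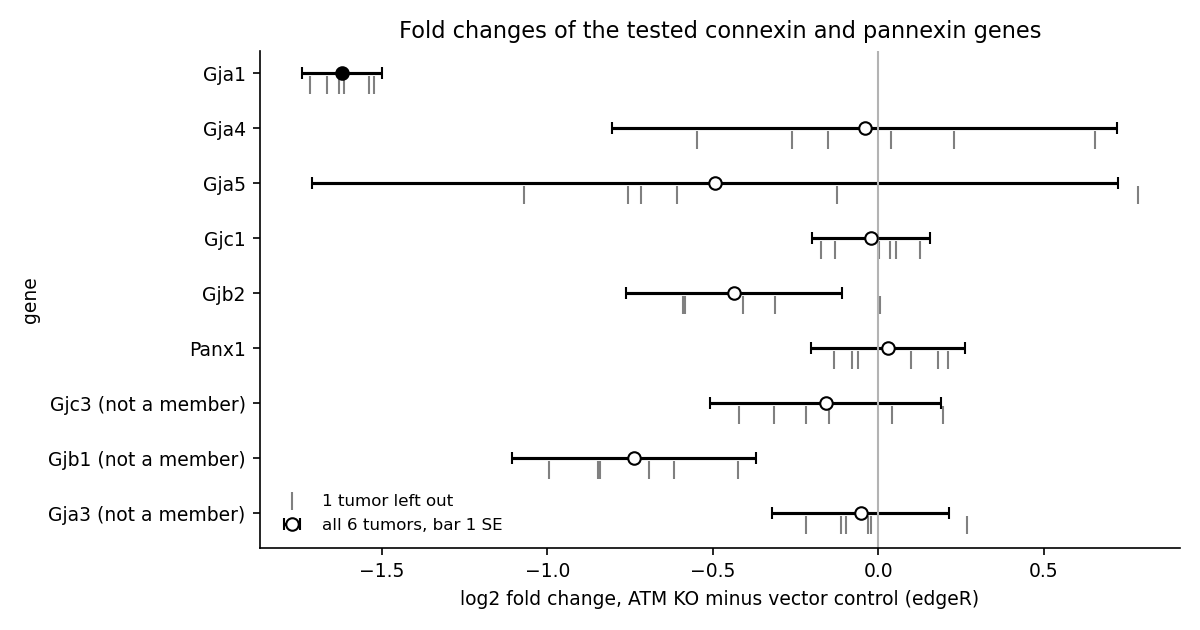
Log2 fold changes (ATM KO minus vector control, edgeR) of the 9 tested connexin and pannexin genes, with bars of 1 SE; the filled point passed the adjusted p threshold of 0.05, and grey ticks show the fits that each left out 1 tumor. Gja1 keeps between -1.72 and -1.52 in all of these fits, while the ticks of Gja4 and Gja5 lie on both sides of 0.

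Levels of different genes can be compared only per length, here as CPM per kb of the longest principal mRNA in the GENCODE annotation. On that scale the order of the vector control tumors was Gjb2 (104.8 ± 47.6), Gja1 (26.2 ± 2.26), Gjc3 (16.3 ± 6.63), Gjc1 (7.60 ± 1.54), Panx1 (2.43 ± 0.533), Gjb1 (2.38 ± 0.404), Gja3 (1.78 ± 0.626), Gja4 (0.996 ± 0.797) and Gja5 (0.953 ± 1.04 CPM per kb; SD, n = 3 each). The first 4 places were set apart, as no tumor of a gene reached the range of the next gene down to Panx1. From Panx1 to Gja5, each gene overlapped its neighbor in the order.

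In the ATM KO tumors the order began with Gjb2 (77.5 ± 14.2), Gjc3 (14.6 ± 3.75), Gja1 (8.52 ± 1.15) and Gjc1 (7.49 ± 0.964 CPM per kb; SD, n = 3 each). Gja1 stood 1 place lower than in the vector control tumors, and its range overlapped that of Gjc1. Panx1 followed at 2.49 ± 0.566 CPM per kb, apart from Gjc1 above and from Gja3 (1.72 ± 0.0945) below it. Gjb1 (1.43 ± 0.597), Gja4 (0.971 ± 0.356) and Gja5 (0.679 ± 0.350) came last, each overlapping its neighbor.

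The place of Gja1 depended on the length used. Its annotated exons together measure 10.257 kb and its principal mRNA 3.182 kb. With all exons as the length, Gja1 came to 8.13 CPM per kb in vector control and 2.64 CPM per kb in ATM KO tumors, below Gjc3 in both groups and, in ATM KO tumors, below Gjc1 at 3.46 CPM per kb. The comparison between groups within Gja1 does not use a length.

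**Figure D4:**
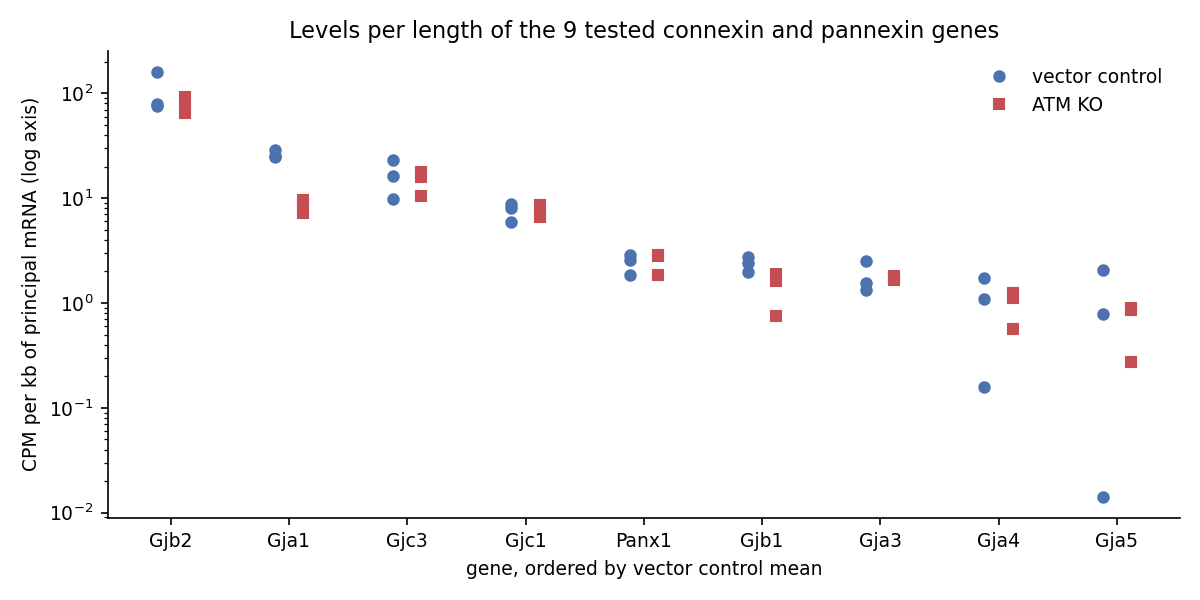
CPM per kb of principal mRNA (log axis) for the 9 tested genes in each of the 3 vector control tumors (circles) and 3 ATM KO tumors (squares), ordered by the vector control mean. Gjb2 is at the top in both groups, and Gja1 drops from 26.2 to 8.52 CPM per kb on average, into the range of Gjc1.

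Connexin transcripts were summed over all connexin genes in the count files, tested or not. The sum came to 205.4, 138.8 and 139.9 CPM per kb in vector control tumors 1, 2 and 3, against 130.4, 114.9 and 95.05 CPM per kb in ATM KO tumors 1, 2 and 3. Gja1 made up 11.9%, 18.3% and 20.6% of that sum in the vector control tumors and 5.59%, 8.33% and 9.13% in the ATM KO tumors. Gjb2 made up 77.8%, 54.3% and 56.6% against 71.2%, 65.1% and 68.2%. The Gja1 shares of the groups did not overlap and the Gjb2 shares did, with connexin 26 transcripts the largest part in every tumor. With all annotated exons as the length and only the 8 tested connexins in the sum, the Gja1 shares were 4.12%, 6.93% and 7.91% against 1.90%, 2.93% and 3.23%, again without overlap.

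Ratios within a tumor do not depend on library scaling, but they do depend on the lengths used. Relative to Gjc1, both in CPM per kb, Gja1 stood at 4.15, 2.87 and 3.56 in vector control tumors 1, 2 and 3 and at 1.10, 1.12 and 1.19 in ATM KO tumors 1, 2 and 3. Relative to Gjb2 it stood at 15.3%, 33.7% and 36.3% against 7.86%, 12.8% and 13.4%, and relative to Gjc3 at 251.1%, 110.5% and 176.6% against 41.3%, 60.5% and 83.1%. All 3 ratios separated the groups without overlap, the one to Gjc1 with the narrowest spread among ATM KO tumors. The ratios and the shares reuse the Gja1 values, whose groups already did not overlap, as in 29.7% of all genes tested. They restate that difference and add no support of their own. With all annotated exons as the length the ratio to Gjc1 was 2.79, 1.93 and 2.39 against 0.736, 0.752 and 0.800, below 1 in the ATM KO tumors. On that length the ratio to Gjc3 was below 100% in all tumors, at 84.8%, 37.3% and 59.6% against 13.9%, 20.4% and 28.1%, and the ratio to Gjb2 was 4.75%, 10.5% and 11.3% against 2.44%, 3.97% and 4.15%. A change of length scales a ratio equally in all tumors, so the groups stay as far apart in fold.

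**Figure D5:**
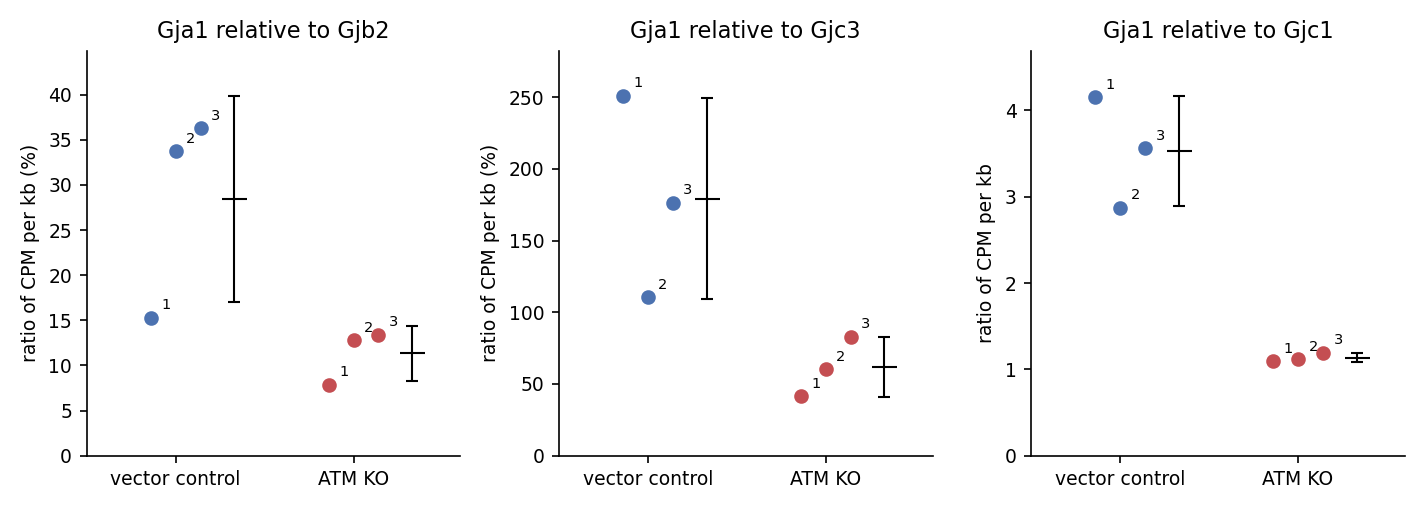
Ratio of Gja1 to Gjb2, Gjc3 and Gjc1 in CPM per kb, by tumor (numbered points), with the mean and SD of each group of 3. In each panel the ATM KO tumors lie below all vector control tumors, for Gjc1 at 1.10 to 1.19 against 2.87 to 4.15.

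Of the 15 connexin and pannexin genes outside the list, 3 passed the filter and none was called by edgeR, by DESeq2 or by limma-voom, with 0 at an unadjusted edgeR p under 0.05. Gjc3, connexin 29 of myelinating glia, was at 65.4 ± 26.5 and 58.6 ± 15.03 CPM (edgeR adjusted p = 0.853). Gjb1, connexin 32, whose human gene is mutated in an inherited neuropathy, was at 4.38, 3.84 and 3.10 CPM in vector control tumors 1, 2 and 3 and at 2.58, 3.01 and 1.20 CPM in ATM KO tumors 1, 2 and 3. Its groups did not overlap, as in 29.7% of all genes tested. The log2 fold change was -0.74 ± 0.37 (SE), and Gjb1 did not pass (edgeR adjusted p = 0.293). Gja3, a lens connexin, was at 4.93 ± 1.73 and 4.75 ± 0.261 CPM (edgeR adjusted p = 0.942). It lies in the same stretch of chromosome 14 as Gjb2 (chr14:57034460-57058100), with a log2 fold change of -0.05 ± 0.27 (SE).

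The other 12 were too low to be tested. Gjb5 had the most counts among them, 0, 5 and 9 in vector control tumors 1, 2 and 3, against 8, 11 and 14 in ATM KO tumors 1, 2 and 3. Gjd4, Gja6, Gja10 and Gjd3 had at most 4 counts in any tumor. Gjd2, Gje1 and Panx3 had 0 counts in all 6.

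Proteins that bind connexins or set their turnover formed a list of 19 genes, of which 18 were tested. Of these, 2 passed as higher and 0 as lower, beside 2.21% and 2.75% of all genes tested. The median log2 fold change was 0.04. Mapre1, the microtubule end protein that helps deliver connexin 43 to the cell border, rose from 195 ± 13.4 to 257 ± 10.2 CPM, by 0.40 ± 0.08 on the log2 scale (SE; edgeR adjusted p = 0.0424). Prkca, a protein kinase C that phosphorylates connexin 43, rose from 32.9 ± 1.56 to 42.7 ± 2.26 CPM, by 0.38 ± 0.08 on the log2 scale (SE; edgeR adjusted p = 0.0464). Prkce, another protein kinase C, was at 45.9 ± 6.93 and 65.9 ± 0.972 CPM and did not pass (edgeR adjusted p = 0.0538). Neither the Mapre1 nor the Prkca call held in any of the 6 fits that left out a tumor, with edgeR adjusted p-values of 0.0518 to 0.148 and 0.0617 to 0.194.

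Receptors for released ATP, the enzymes that break it down and the caspases that cut Panx1 made a list of 22 genes, with 20 tested and none called by edgeR. At an unadjusted p under 0.05, 2 of 20 were higher and 1 was lower, beside 1670 and 1936 of all 15696 genes; DESeq2 called 1 and limma-voom called 0. The smallest p belonged to Ada, adenosine deaminase, at 5.59 ± 1.40 and 9.20 ± 0.426 CPM (edgeR adjusted p = 0.0985). P2rx7, the ATP-gated channel that works beside Panx1 in macrophages, was at 54.2 ± 6.97 and 43.1 ± 3.80 CPM (edgeR adjusted p = 0.154). P2ry14, a receptor for UDP sugars, was at 4.05 ± 1.21 and 6.44 ± 0.877 CPM (edgeR adjusted p = 0.192). The median log2 fold change of the list was -0.01.

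Other large-pore channel genes, the volume-regulated LRRC8 channels and the CALHM channels with them, numbered 12, of which 8 were tested (median log2 fold change 0.10). Of these, 1 passed as lower and 0 as higher, beside 2.75% and 2.21% of all genes tested. Lrrc8a, the subunit that every LRRC8 channel needs, was at 17.9, 17.6 and 17.6 CPM in vector control tumors 1, 2 and 3 and at 12.1, 11.8 and 13.7 CPM in ATM KO tumors 1, 2 and 3. It fell by 0.50 ± 0.10 on the log2 scale (SE; edgeR adjusted p = 0.0462). The Lrrc8a call held in none of the 6 fits that left out a tumor (edgeR adjusted p 0.0594 to 0.178), nor with library size alone as the scale (0.0523), with no filter on low counts (0.0877) or with non-robust dispersions (0.0524). Its partner Lrrc8b was at 83.0 and 93.9 CPM and Calhm5 at 5.89 and 8.77 CPM, and neither passed (edgeR adjusted p of 0.201 and 0.0915).

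The series title names cGAS and STING, and cGAMP, the product of cGAS, crosses gap junctions as well as transporters and LRRC8 channels. Of 8 genes for the synthesis, sensing, transport and breakdown of cGAMP, 7 were tested, with a median log2 fold change of 0.01. Of these, 1 passed as higher and 0 as lower, beside 2.21% and 2.75% of all genes tested. Slc46a1, a folate transporter, was at 1.99, 1.92 and 2.15 CPM in vector control tumors 1, 2 and 3 and at 4.22, 3.83 and 4.82 CPM in ATM KO tumors 1, 2 and 3. It rose by 1.08 ± 0.19 on the log2 scale (SE; edgeR adjusted p = 0.0368). That call held in 1 of the 6 fits that left out a tumor, the one without vector control tumor 1, with edgeR adjusted p-values of 0.0378 to 0.153. Cgas was at 14.5 ± 1.04 and 19.6 ± 3.36 CPM (edgeR adjusted p = 0.145) and Slc19a1, a cGAMP importer of human cells, at 19.3 ± 4.86 and 16.6 ± 0.526 CPM (edgeR adjusted p = 0.551).

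Likeness to each member was measured as the Pearson correlation of log2 CPM over the 6 tumors after the mean of each group was subtracted, among 11687 coding genes with at least 2 CPM (11688 for Gja4). Values over 6 points from 6 libraries run high for many genes, so these are a description, and the count of genes above 0.95 is given beside each. For Gja1 the most like were Acvr2a (0.984), Elac1 (0.982) and Naca (0.974), with 12 genes above 0.95. For Gja4 they were Gja5 (0.998), Yif1a (0.997) and Scamp2 (0.997), with 222 genes above 0.95. Gja5, the other arterial connexin, ranked first for Gja4, though barely above Yif1a and Scamp2. Both connexins were lowest in vector control tumor 1, at 6 counts of Gja4 and 1 count of Gja5. The weight of that tumor in the correlation was not tested.

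Gja4, at a mean of 1.66 CPM over the 6 tumors, was below the limit of 2 CPM and so was not a candidate for Gja5. Its correlation with Gja5 was the 0.998 given above. Among the candidates, those most like Gja5 included Palmd (0.998) and Cygb (0.997), with 248 above 0.95. For Gjb2 they were Cenpj (0.998), Ppfibp2 (0.998) and Pik3r3 (0.998), with 181 above 0.95; Cenpj lies on chromosome 14 as well. Gjc1 was most like Bach2 (0.997), Mex3b (0.996) and Osbp (0.996), with 107 above 0.95. Panx1 was most like Sdf2l1 (0.999), Fign (0.999) and Mrpl14 (0.998), with 148 above 0.95. Gja1 had the fewest genes this like it of the 6 members.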

How the data were processed

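Whole-tumor RNA was measured in 6 libraries. The deposited values are raw read counts for each gene, in a file per library. The tools were HTSeq, STAR, SAMtools, cutadapt and Trim Galore and the builds mm10 and GRCm38, per the submitters' processing notes. Their versions and roles and the strand setting are not given in the sources used here; reads of overlapping or antisense genes may not be told apart. The 5 counter rows were not used as genes: no-feature reads were 16.7% to 18.2% and ambiguous reads 1.21% to 1.38% of each library, and the other counters read 0. All 55536 identifiers matched GENCODE release M21, which gave coordinates and lengths.

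Genes were filtered with filterByExpr (minimum count 10, minimum total 15), scaled by TMM (factors 0.958 to 1.03) and tested with the robust quasi-likelihood test of edgeR 4.0.16 (R 4.3.3), with genotype as the term. P-values were adjusted by Benjamini-Hochberg over all 15696 genes, threshold 0.05; the biological coefficient of variation was 27.6% in common. The SE of an edgeR fold change was derived from the test, as the absolute log2 fold change over the square root of F. Levels per tumor for marker lists sum CPM, and log2 CPM used a prior count of 2. Libraries of a group differed by more than sampling noise (chi-square of 21.2 to 79.9 per degree of freedom), and each was treated as 1 sample. That excess does not show that they came from separate mice. The fit was tested on simulated data. The alternatives used limma 3.58.1, DESeq2 1.42.0, other scalings, filters and thresholds, a replicate block, and each tumor left out.

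The members and lists were chosen with earlier results of these data known. Genes named are the members, the other family genes with a count, the called genes and the 3 with the smallest p of each list, the 3 genes most like each member with at least 1 CPM, and markers on which a result turns; some of these are not reported here.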

Additional observations from a re-analysis of the deposited data

How the results depend on the processing

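The log2 fold change of Gja1 stayed between -1.72 and -1.52 under every alternative run, and its call was lost with a replicate block (-1.63, edgeR adjusted p = 0.102) and without ATM KO tumor 1. Tumors that share a number are not stated to be pairs, and their deviations from the group means correlated at 0.0437, -0.272 and -0.42. The number of genes called was 778, 2070 with DESeq2, 1699 at a threshold of 0.10, 0 with the replicate block and 2 to 1209 with 1 tumor left out (2 without ATM KO tumor 1, 28 without vector control tumor 2, 42 without ATM KO tumor 2, 1209 without vector control tumor 1). With the replicate block, counts called were 0 for members, partners, large-pore channels, cGAMP genes and arterial genes. With 1 tumor left out they were 0 to 1 for members, partners, purinergic and cGAMP genes, 0 for large-pore channels and 0 to 2 for arterial genes. Partners called were 1 with limma-voom. Purinergic genes called were 1 with DESeq2 and 1 at a threshold of 0.10. Large-pore channels called were 2 with DESeq2 and at a threshold of 0.10, and 0 with library size alone, no filter or non-robust dispersions. Arterial genes called were 0 with library size alone.

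The sign of Gja4, Gja5, Gjc1, Gjb2 and Panx1 turned under some of the alternatives. Gja4 was at 0.40 with limma-voom, 0.27 with the replicate block and -0.55 to 0.65 with 1 tumor left out. Gja5 was at 0.84, 0.29 and -1.07 to 0.78 under the same settings. Gjc1 was at 0.022 with library size alone, 0.0056 with at least 1 CPM in 3 libraries and -0.17 to 0.13 with 1 tumor left out. Gjb2 ranged from -0.59 to 0.0045 and Panx1 from -0.13 to 0.21 with 1 tumor left out. Why these values moved was not tested. Length of all annotated exons was an alternative added after the data were seen. Gja4, Gja5, Gjb6 and Panx2 are limited by their low counts.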
